A study of Mus musculus with 35 samples.

Results

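The 3 genes described here, Klf2, S1pr1 and Ccr7, encode a transcription factor of resting T cells and the receptors that govern how T cells enter and leave lymph nodes. They were taken by name from 48709 annotated mouse genes counted in 35 RNA-seq libraries, and all 3 were among the 13819 genes with enough reads to be tested. The cells were OT-I CTLs, mouse CD8+ T cells that carry a transgenic T-cell receptor for the ovalbumin peptide SIINFEKL on MHC class I. They were purified from spleens, primed by antibodies to CD3 and CD28, then grown in murine IL-2, so that all libraries, including those without IL-2 in the last 24 h, came from cells raised in 200 IU/mL of it. There were 7 groups: CTLs at the start (0 h), and CTLs kept for 24 h in medium of pH 7.4, of pH 7 or of pH 6.6, with 200 IU/mL murine IL-2 or with none. Low-glucose DMEM was brought to the low pH with HCl. Each group held 5 biological replicates, numbered alike across groups.

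KLF2 is a zinc-finger factor that keeps naive and memory T cells quiescent and drives transcription of S1pr1. S1PR1 senses sphingosine 1-phosphate (S1P), which is abundant in blood and lymph, and lets T cells leave lymphoid tissue. CCR7 binds the chemokines CCL19 and CCL21 and takes T cells through high endothelial venules into the T-cell zone of lymph nodes. FOXO1 promotes transcription of Klf2, Ccr7 and Il7r and is kept out of the nucleus by AKT, a kinase that IL-2 and antigen receptors can activate, and effector CTLs usually hold these genes low. RNA levels were measured here, not receptor protein or migration.

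Klf2 (ENSMUSG00000055148) lies on the plus strand of GRCm38 at chr8:72319033-72321656, S1pr1 (ENSMUSG00000045092) on the minus strand at chr3:115710433-115715072, and Ccr7 (ENSMUSG00000037944) on the minus strand at chr11:99144196-99155077. Each has 1 annotated transcript, with 1847, 3046 and 1978 exonic bases, respectively. Their exons overlap no other gene on either strand, and 100% of their 50-base windows occur in no other gene's transcripts. The sequence just upstream of Klf2 is shown because ERK5 and MEF2 factors are known to act on this promoter and some genes of that pathway are named below. It covers 221 bases, chr8:72318812-72319032 on the plus strand of GRCm38.p6 (RefSeq), and ends at the base before the annotated start. Capitals mark, from left to right, a CRE core, a pair of GC boxes and a MEF2 site.
Klf2 promoter: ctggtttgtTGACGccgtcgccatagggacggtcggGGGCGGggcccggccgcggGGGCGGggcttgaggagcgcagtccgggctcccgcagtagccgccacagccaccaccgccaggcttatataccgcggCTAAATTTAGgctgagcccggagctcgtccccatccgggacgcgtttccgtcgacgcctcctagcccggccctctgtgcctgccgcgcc
The MEF2 consensus began 89 bases before the start, and 139 of 32851 promoter windows of the same length (0.423%) held it. The GC box GGGCGG occurred 2 times, 185 and 166 bases before the start, and was in 28.7% of windows. TGACG, the core of a cyclic AMP response element (CRE), began 212 bases before the start and was in 15% of windows. Both strands were searched, the motifs did not overlap, and the letters were chosen with this sequence in view: 5 spellings of the MEF2 motif were tried, held by between 0.0365 and 17.3% of windows, and 2 of the GC box (8.3 and 28.7%), so these shares depend on the spelling. CACCC (48% of windows), the FOXO sequence TGTTTAC (2.81%) and the STAT sequence TTCNNNGAA (6.3%) were searched for as well and were not in this window. These matches describe letters in a window and no binding was measured. Of the 3 genes, 1 had an entry in the promoter table.

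The libraries held between 16721319 and 34033340 reads assigned to genes, with a median of 24730020. Of the CD8+ T-cell markers, Cd8a lay between 674 and 1600 CPM (reads per gene scaled to a common library size) in all 35 libraries, and Cd3e between 374 and 631 CPM. The effector genes of this list varied far more, Gzmb from 36.7 to 9010 CPM and Prf1 from 11.1 to 686 CPM. The list (9 of 9 tested) summed to 9890 to 12700 CPM at pH 7.4 + IL-2 and 3750 to 5150 CPM at pH 6.6 + IL-2. Without IL-2 it summed to 3490 to 4180 CPM at pH 7.4 and 3170 to 3640 CPM at pH 6.6. Of the markers of other cell types, Ms4a1, Pax5, Siglech and Emcn were at 0 in all 35 libraries, and Lyz2, Csf1r, Ncr1, Cdh5 and Tek did not pass 0.286 CPM in any. The summed B-cell list (1 of 6 genes tested) did not exceed 6.1 CPM. The CD4 T-cell list (3 of 4 tested) lay between 17.4 and 63.8 CPM, mostly through Zbtb7b, with Cd4 at or below 2.48 CPM. The NK-cell list (1 of 4 tested, Klrb1c) ranged from 8.27 to 95 CPM and was lowest at pH 6.6 without IL-2. The endothelial list (2 of 6 tested) ranged from 22.4 to 119 CPM, almost all of it Pecam1, which was highest at pH 7.4 and pH 7 without IL-2. The myeloid and dendritic list (4 of 10 tested) moved with acidity and with IL-2: it summed to 0.78 to 1.12 CPM at pH 7.4 + IL-2, 13.3 to 24 CPM at pH 6.6 + IL-2, 4.88 to 11 CPM at pH 7.4 without IL-2 and 21.8 to 32.4 CPM at pH 6.6 without IL-2. It was thus also lower with IL-2 at pH 7.4, where 3 of its 4 tested genes were lower, around a median log2 fold change of -3.20. At pH 6.6 against pH 7.4, 2 of the 4 rose with IL-2, and 1 rose and 2 fell without it. At pH 6.6 nearly all of the sum was Zbtb46, at up to 31.3 CPM. Over all 35 libraries, of whatever group, Flt3 reached 6.4 CPM, Itgam 3.29 CPM and Cd14 0.827 CPM. The part of these shifts in the results below was not tested. In bulk RNA, fewer cells expressing a gene and less of its RNA per cell cannot be told apart.

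The first question was whether acidity changed Klf2, S1pr1 and Ccr7 in CTLs given IL-2. At pH 6.6 all 3 genes were higher than at pH 7.4, S1pr1 8.55-fold, Ccr7 3.55-fold and Klf2 3.15-fold, and in none of them did the groups overlap. In this comparison 76.3% of all tested genes were called and 35.4% were called higher, so a change as such was the common case. The share of all genes whose groups did not overlap was not counted, here or in the comparisons below. The values below are CPM after TMM scaling, for replicates 1 to 5 in order.

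Klf2 was scarce in CTLs kept at pH 7.4 + IL-2, at 4.66, 3.61, 5.09, 4.63 and 7.04 CPM. At pH 6.6 + IL-2 it stood at 17.9, 16.6, 18, 10.2 and 16.9 CPM. The lowest acid culture, replicate 4, was still above the highest neutral one. The fitted log2 fold change was 1.66 ± 0.156 (SE, n = 5 per group, edgeR adjusted p = 2.55e-11). It was higher in 5 of 5 replicates, by 1.12 to 2.18 on the log2 scale within replicates.

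S1pr1 was at 24.3, 14.1, 19.8, 10.3 and 11.9 CPM at pH 7.4 + IL-2. At pH 6.6 + IL-2 it reached 163, 149, 176, 86.3 and 105 CPM. The order of the replicates was largely kept: replicates 4 and 5 were the lowest in both groups. The log2 fold change was 3.10 ± 0.126 (SE, edgeR adjusted p = 3.07e-20), the 178th largest rise of the 13819 genes tested, and the 5 replicates ranged from 2.75 to 3.39.

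Ccr7 was at 53.1, 53.1, 61.8, 52.6 and 68.4 CPM at pH 7.4 + IL-2. At pH 6.6 + IL-2 it stood at 167, 243, 245, 163 and 209 CPM. The groups were far apart, and the log2 fold change was 1.83 ± 0.205 (SE, edgeR adjusted p = 2.3e-09), with the 5 replicates between 1.61 and 2.19. Compared per length of transcript, Ccr7 was the most abundant of the 3 at pH 6.6 + IL-2, at 104 ± 19.9 RPKM (SD, n = 5), against 44.6 ± 12.6 RPKM for S1pr1 and 8.62 ± 1.77 RPKM for Klf2. At pH 7.4 + IL-2 the same levels were 29.2 ± 3.56, 5.27 ± 1.91 and 2.71 ± 0.683 RPKM.

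**Figure D1:**
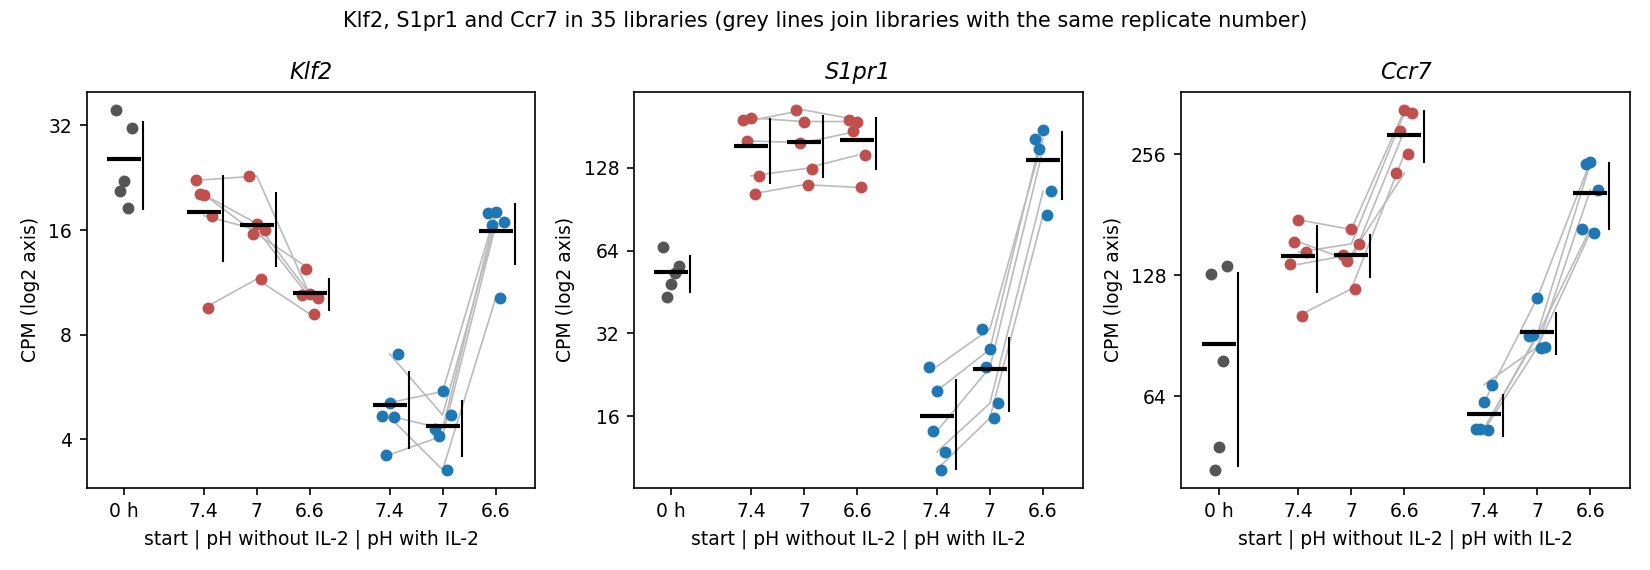
Level of Klf2, S1pr1 and Ccr7 in each library (points, CPM on a log2 axis; horizontal bars, group mean; vertical bars, SD of 5 replicates; grey lines join libraries of the same replicate number across pH). With IL-2 (blue) all 3 genes were far higher in the pH 6.6 cultures than in those at pH 7.4 or pH 7, whereas without IL-2 (red) S1pr1 was not called, Klf2 was lower and Ccr7 was higher at pH 6.6.

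Moderate acidity had smaller effects. Between pH 7 and pH 7.4 with IL-2, where 19% of all genes were called, Ccr7 was 1.61-fold and S1pr1 1.49-fold higher. Klf2 was not called. Ccr7 was at 90.2, 91.1, 112, 84.5 and 84.8 CPM at pH 7 + IL-2, above every value at pH 7.4 + IL-2, and rose by a log2 fold change of 0.69 ± 0.201 (SE, edgeR adjusted p = 0.0161). That call was lost without replicate 4 (0.69, edgeR adjusted p = 0.0698). S1pr1 was at 33.3, 24.1, 28, 15.8 and 17.8 CPM, overlapping the group at pH 7.4 + IL-2, although each replicate was higher than its own partner by 0.45 to 0.77 on the log2 scale. Its log2 fold change was 0.58 ± 0.122 (SE, edgeR adjusted p = 0.00108), and with no replicate block the adjusted p was 0.131. Klf2 was at 4.29, 4.09, 5.49, 3.26 and 4.70 CPM, with a log2 difference of -0.20 and a 95% interval from -0.54 to 0.14. From pH 7 to pH 6.6 with IL-2, where 72.4% of genes were called, all 3 genes were higher in 5 of 5 replicates without overlap. The log2 fold changes of this step were 1.86 ± 0.157 for Klf2, 2.52 ± 0.122 for S1pr1 and 1.14 ± 0.200 for Ccr7 (SE, edgeR adjusted p = 2.91e-12, 5.9e-18 and 8.25e-06).

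Without IL-2 the response to the same acidity was different for each gene. At pH 6.6 against pH 7.4, where 67.0% of genes were called, Ccr7 rose 2.01-fold, Klf2 fell 1.66-fold and S1pr1 was not called. Klf2 was at 22.3, 20.3, 20.2, 9.51 and 17.6 CPM at pH 7.4 and at 10.4, 12.4, 10.5, 9.17 and 10.2 CPM at pH 6.6. The groups overlapped only through replicate 4, which was low at both pH values. The log2 fold change was -0.73 ± 0.147 (SE, edgeR adjusted p = 6.03e-05), and Klf2 was lower in 5 of 5 replicates.

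S1pr1 without IL-2 was at 190.0, 160, 194, 103 and 120 CPM at pH 7.4. At pH 6.6 it was at 191, 174, 188, 109 and 142 CPM, the same range. The log2 difference was 0.08, with a 95% interval from -0.15 to 0.31 (edgeR adjusted p = 0.525), and its sign turned with the scaling (-0.04 under upper-quartile and -0.07 under total-count scaling). Ccr7 without IL-2 was at 136, 155, 176, 101 and 146 CPM at pH 7.4 and at 229, 293, 329, 257 and 324 CPM at pH 6.6. These groups did not overlap, and the log2 fold change was 1.01 ± 0.199 (SE, edgeR adjusted p = 5.53e-05).

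At pH 7 without IL-2 none of the 3 genes was called against pH 7.4, in a comparison that called 1.68% of all genes. Klf2 was at 22.9, 15.6, 16.7, 11.6 and 16 CPM there, S1pr1 at 207, 158, 188, 111 and 127 CPM, and Ccr7 at 144, 139, 166, 118 and 153 CPM. The 95% intervals of the log2 differences ran from -0.40 to 0.18 for Klf2, from -0.18 to 0.28 for S1pr1 and from -0.39 to 0.42 for Ccr7. From pH 7 to pH 6.6, where 66.6% of genes were called, Ccr7 was higher (log2 fold change 0.99 ± 0.199) and Klf2 lower (-0.62 ± 0.147), with edgeR adjusted p = 6.87e-05 and 0.000441. S1pr1 was not called in that step, with a 95% interval from -0.20 to 0.26.

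Whether the effect of acidity depended on IL-2 was tested as the difference between the pH 6.6 effects with and without the cytokine. It was positive for all 3 genes, in a test that called 67.0% of all genes. S1pr1 had the largest difference, 3.01 ± 0.166 on the log2 scale (SE, edgeR adjusted p = 1.68e-16), and the 5 replicates ranged from 2.74 to 3.28. Klf2 differed by 2.39 ± 0.215 (adjusted p = 1.66e-11), the only one of the 3 whose change was called in opposite directions in the 2 arms. Ccr7, which rose in both arms, differed by 0.82 ± 0.281 (adjusted p = 0.0115). The corresponding differences at pH 7 were 0.67 for Ccr7, 0.53 for S1pr1 and -0.09 for Klf2, and none was called in a test that called 4.79% of all genes (adjusted p = 0.181, 0.0594 and 0.88, edgeR). The intervals were wide, from 0.10 to 1.25 for Ccr7, from 0.19 to 0.86 for S1pr1 and from -0.53 to 0.36 for Klf2. S1pr1 at pH 7 was past the threshold under 5 of the alternative settings given at the end.

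The same libraries give the effect of IL-2 at each pH, and these comparisons share their control libraries with those above. At pH 7.4, where 80.4% of genes were called, IL-2 was accompanied by 9.65-fold less S1pr1, 3.53-fold less Klf2 and 2.46-fold less Ccr7. The groups overlapped for none of them. The log2 fold changes were -3.27 ± 0.126, -1.82 ± 0.156 and -1.30 ± 0.202 (SE, edgeR adjusted p = 1.88e-21, 1.88e-12 and 9.42e-07). At pH 7, where 77.2% of genes were called, they were -2.74 ± 0.122 for S1pr1, -1.91 ± 0.157 for Klf2 and -0.63 ± 0.199 for Ccr7 (adjusted p = 1.29e-19, 8.43e-13 and 0.0052).

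At pH 6.6, 23.7% of all genes were called between CTLs with and without IL-2, far fewer than at pH 7.4 or pH 7. The log2 difference of S1pr1 with IL-2 from without was -0.26 (95% interval -0.49 to -0.03, edgeR adjusted p = 0.0946), and that of Ccr7 was -0.48 (interval -0.88 to -0.08, adjusted p = 0.0746). Neither passed the threshold, although each was lower in 5 of 5 replicates, and both passed it when only the groups compared were fitted. The Ccr7 value was near the -0.63 at pH 7, and the change between these pH values was not tested. Klf2 was instead 1.48-fold higher with IL-2 than without, by a log2 fold change of 0.57 ± 0.148 (SE, adjusted p = 0.00475), and higher in 5 of 5 replicates, though the groups overlapped. CTLs at pH 6.6 + IL-2 were also set against CTLs at pH 7.4 without IL-2, a comparison that called 64.4% of all genes. S1pr1 and Klf2 were not called there, with log2 differences of -0.17 (95% interval -0.40 to 0.06) and -0.16 (-0.46 to 0.13). Ccr7 was higher by 0.53 ± 0.198 (edgeR adjusted p = 0.0209), with overlapping groups, and the call was lost without replicate 4 (0.49).

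**Figure D2:**
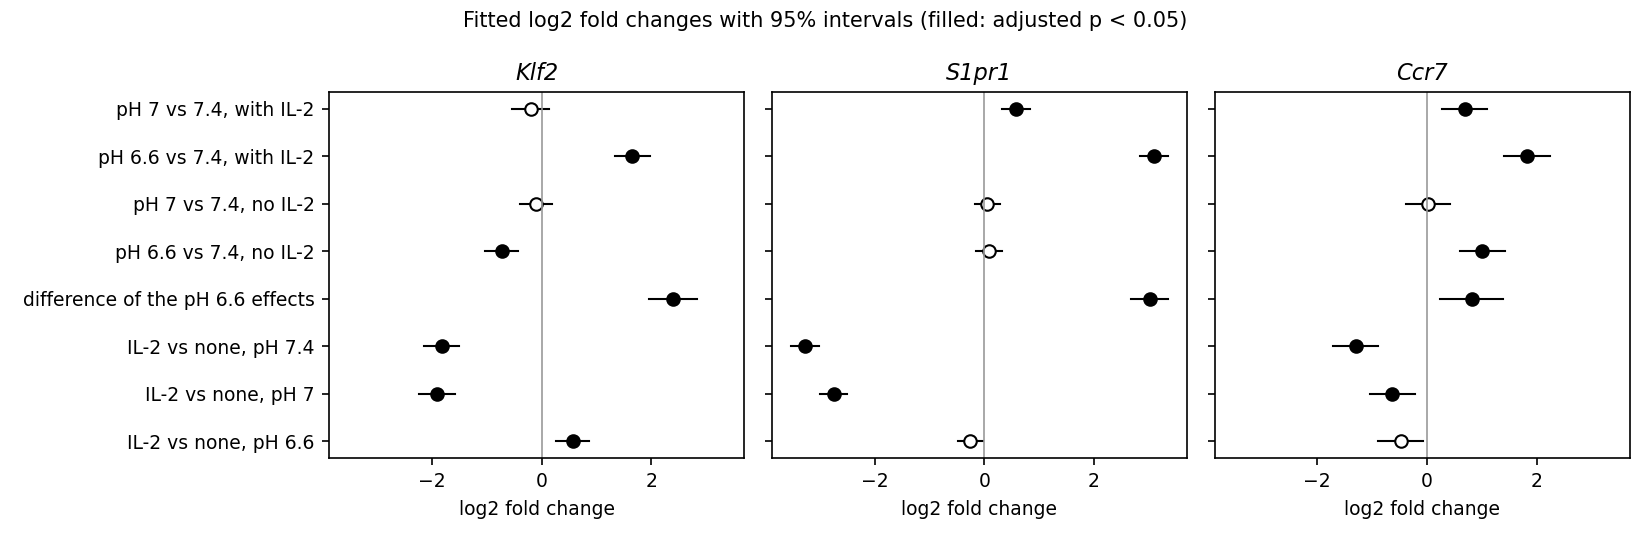
Fitted log2 fold changes of Klf2, S1pr1 and Ccr7 (points; horizontal lines, 95% intervals; n = 5 per group; filled points passed an adjusted p of 0.05). The pH 6.6 effect was 1.66, 3.10 and 1.83 with IL-2 and -0.73, 0.08 and 1.01 without it. All 3 genes were lower with IL-2 at pH 7.4 and pH 7. At pH 6.6 the IL-2 effect was small for S1pr1 (-0.26) and turned round for Klf2 (0.57). For Ccr7 it was -0.48 at pH 6.6, near the -0.63 at pH 7.

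Before the 24 h culture, Klf2 stood at 35.4, 20.7, 22.1, 18.5 and 31.5 CPM, the highest group for this gene. All 4 cultures compared with 0 h had less of it, by log2 fold changes of -2.34 at pH 7.4 + IL-2, -1.25 at pH 6.6, -0.68 at pH 6.6 + IL-2 and -0.52 at pH 7.4, and all 4 were called (percentages of all genes called 59.9, 75.1, 68.5 and 75.2). S1pr1 was at 65.8, 43.4, 48.3, 53.1 and 56.4 CPM at 0 h, between the low and the high groups. It fell to pH 7.4 + IL-2 by 1.82 on the log2 scale and was higher than at 0 h in the other 3 cultures, by 1.28 at pH 6.6 + IL-2, 1.46 at pH 7.4 and 1.54 at pH 6.6. Ccr7 at 0 h was split, at 129, 42.0, 47.9, 78.3 and 135 CPM, so that replicates 1 and 5 lay well above the others. Its fall to pH 7.4 + IL-2 (-0.57 ± 0.202, edgeR adjusted p = 0.0155) was seen in 3 of 5 replicates and was lost without replicate 1 (-0.36), without replicate 4 (-0.57) and without replicate 5 (-0.43). It rose to pH 7.4, pH 6.6 + IL-2 and pH 6.6 by 0.73, 1.26 and 1.74.

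Ranked over the 7 groups, Ccr7 was highest at pH 6.6 (287 ± 43.2 CPM, SD) and then at pH 6.6 + IL-2 (205 ± 39.4 CPM). The difference between them did not pass the threshold (adjusted p = 0.0746, edgeR), although Ccr7 was lower with IL-2 in 5 of 5 replicates. The pH 6.6 groups were followed by pH 7 (144 ± 17.8 CPM) and pH 7.4 (143 ± 27.4 CPM), not told apart, by pH 7 + IL-2 (92.6 ± 11.4 CPM) and 0 h (86.4 ± 43.8 CPM), also not told apart, and by pH 7.4 + IL-2 (57.8 ± 7.05 CPM). S1pr1 formed a plateau of 4 groups whose neighbours were not told apart: pH 6.6 (161 ± 35 CPM), pH 7 (158 ± 40.4 CPM), pH 7.4 (153 ± 41.0 CPM) and pH 6.6 + IL-2 (136 ± 38.5 CPM). Still, S1pr1 at pH 6.6 + IL-2 was lower than at pH 6.6, pH 7 and pH 7.4 in 5 of 5 replicates each. The log2 differences were -0.26, -0.23 and -0.17, and none was called. Below the plateau were 0 h (53.4 ± 8.49 CPM), pH 7 + IL-2 (23.8 ± 7.20 CPM) and pH 7.4 + IL-2 (16.1 ± 5.83 CPM), each different from the next. Klf2 was highest at 0 h (25.6 ± 7.39 CPM). The next 3 groups, pH 7.4 (18 ± 5.03 CPM), pH 7 (16.6 ± 4.07 CPM) and pH 6.6 + IL-2 (15.9 ± 3.26 CPM), had neighbours that were not told apart. Klf2 at pH 6.6 (10.5 ± 1.15 CPM) was below these and above pH 7.4 + IL-2 (5.01 ± 1.26 CPM) and pH 7 + IL-2 (4.37 ± 0.816 CPM), which were not told apart. Replicate 4 tended to be low for all 3 genes. Over the 6 groups at 24 h it was the lowest replicate in 6 groups for S1pr1, 5 for Klf2 and 5 for Ccr7.

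The genes for entry into lymph nodes did not all move in 1 direction. Of 22 genes listed for lymph node entry, 19 were tested. At pH 6.6 against pH 7.4 with IL-2, 5 rose and 8 fell, around a median log2 fold change of -0.08 against -0.07 over all genes, of which 76.3% were called. This split turned with the scaling, to 7 higher and 5 lower under upper-quartile factors. Besides Ccr7, the largest rises were Itga4, the alpha chain of the VLA-4 integrin (log2 fold change 2.38 ± 0.213), and Cxcr4, the receptor of CXCL12 (2.16 ± 0.473). The falls included Coro1a, an actin regulator needed for T-cell migration (-0.86 ± 0.101), and Itgal, the alpha chain of the integrin LFA-1 (-0.58 ± 0.0982). Without IL-2, where 67.0% of all genes were called, 4 rose and 10 fell, and Itga4 was among those that fell (-0.85 ± 0.196, edgeR adjusted p = 0.000353). Itga4 followed the S1pr1 pattern for IL-2 as well, with a log2 fold change of -3.59 ± 0.221 at pH 7.4 and a difference of the pH 6.6 effects of 3.23 ± 0.289 (adjusted p = 1.78e-15 and 3.79e-11). IL-2 at pH 7.4 went with 8 higher and 7 lower genes of the list (6 and 11 under upper-quartile factors), where 80.4% of all genes were called. Ccl19 and Ccl21a, the ligands of CCR7, had no read in any library, and 1 read mapped to the scavenger receptor gene Ackr4.

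The S1P list covered receptors, enzymes and signal partners, and 17 of its 20 genes were tested. With IL-2, 9 rose and 4 fell at pH 6.6 against pH 7.4, around a median of 0.34, so that 13 of the 17 were called where 76.3% of all genes were. The rise of S1pr1 was well above that of the other S1P receptors tested. S1pr2, whose product holds cells back from S1P, rose by 1.26 ± 0.0979 with IL-2 and by 0.69 ± 0.0951 without it (edgeR adjusted p = 2.12e-13 and 1.47e-07). S1pr4, a receptor of haematopoietic cells, rose by 0.72 ± 0.105 with IL-2 (adjusted p = 2.33e-07) and had a log2 difference of -0.23 without it (adjusted p = 0.0511). The rise of Cd69, whose product removes S1PR1 from the cell surface, was 0.36 ± 0.165 with IL-2 (adjusted p = 0.0465, lost without replicate 2, 4 or 5 and with no replicate block) and 0.89 ± 0.168 without it (adjusted p = 3.01e-05). IL-2 went with more Cd69, by 1.47 ± 0.170 at pH 7.4 and 0.94 ± 0.167 at pH 6.6 (adjusted p = 3.16e-09 and 8.11e-05). Rgs1, a brake on chemokine receptor signalling, rose by 1.24 ± 0.168 with IL-2. The largest falls with IL-2 by the rule for naming were Spns2, an S1P exporter (-0.58 ± 0.256), Gnai2, the G protein subunit that S1PR1 and CCR7 signal through (-0.37 ± 0.0643), and the S1P-making kinase Sphk2 (-0.31 ± 0.119). The Spns2 call was lost without replicate 2 (-0.50), replicate 4 (-0.57) or replicate 5 (-0.28), and the Sphk2 call without replicate 1 or 3 (-0.24 in both). Spns2 and Sphk2 also lost their calls under RLE, upper-quartile and total-count scaling, where the list split 9 to 2. S1pr5 had 3 reads in all 35 libraries together, and Sphk1 11. Without IL-2 the same acidity gave 9 rises and 2 falls in this list, where 67.0% of all genes were called.

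Klf2 was not alone in its family. Of 17 KLF genes 11 were tested, and with IL-2 9 rose, 1 fell and 1 was not called at pH 6.6 against pH 7.4, around a median of 1.24. Of all genes 76.3% were called in this comparison, 35.4% were called higher, and the median was -0.07. Klf10 and Klf11, both known as early genes of TGF-beta signalling, rose by 3.07 ± 0.271 and 2.42 ± 0.211 (edgeR adjusted p = 2.28e-11 and 8.64e-12). Klf3, a repressor that KLF factors can induce, rose by 2.59 ± 0.136 (adjusted p = 1.39e-17). Klf6 rose by 0.62 ± 0.107 and Klf16 fell by 0.37 on the log2 scale (adjusted p = 4.36e-06 and 0.000898).

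Without IL-2, where 67.0% of all genes were called, the family split, with 5 higher, 1 lower and 5 not called, and Klf2 was the 1 that fell. Under total-count scaling 3 were called lower. Klf10 and Klf11 rose there too, by 1.73 ± 0.255 and 1.10 ± 0.195, as did Klf6, by 0.88 ± 0.107 (edgeR adjusted p = 9.16e-07, 1.17e-05 and 1.35e-08). Klf3 without IL-2 had a log2 difference of 0.14 (adjusted p = 0.31), which turned to -0.01 under total-count scaling. With IL-2 at pH 7.4, 7 of the 11 were lower and 1 higher than without it, against 80.4% of all genes called. Klf3 was lower by a log2 fold change of -2.78 ± 0.136, Klf11 by -1.57 ± 0.210 and Klf10 by -1.56 ± 0.260 (adjusted p = 9.01e-19, 5.42e-08 and 3.6e-06). Klf6 had a difference of 0.20 (adjusted p = 0.0794), -0.02 under upper-quartile scaling. At pH 6.6, IL-2 went with 1 higher gene of the family, which was Klf2, and 3 lower, where 23.7% of all genes were called.

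**Figure D3:**
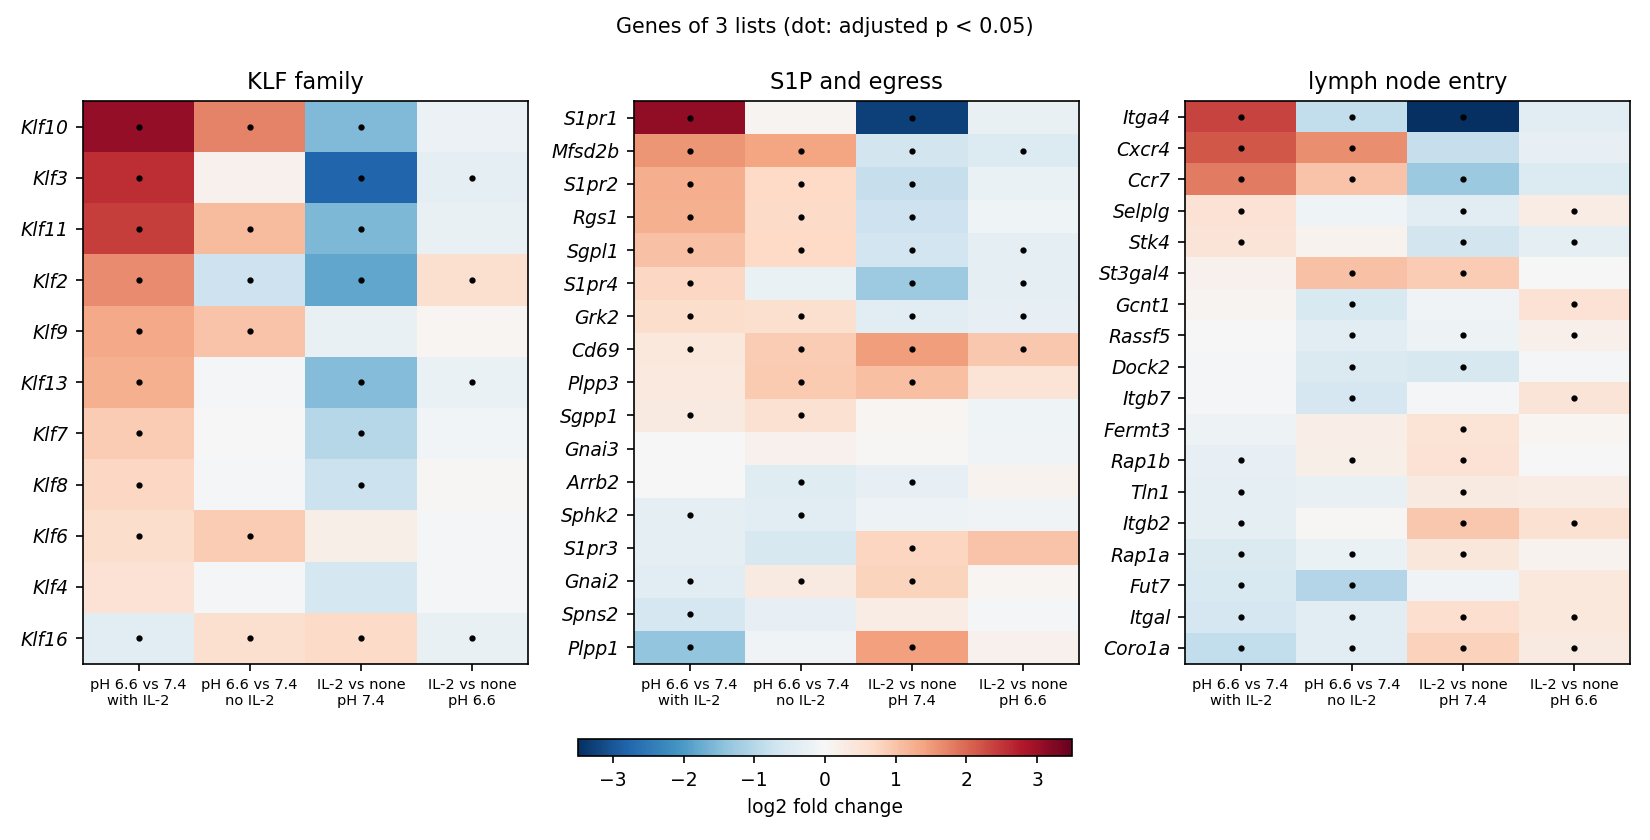
Fitted log2 fold changes (colour) of the genes shown of the KLF, S1P and lymph node entry lists in 4 comparisons; dots mark an adjusted p below 0.05, n = 5 per group. In the KLF list 9 of 11 genes rose at pH 6.6 with IL-2 and 7 were lower with IL-2 at pH 7.4, while the entry list was mixed, with Ccr7 near its top and Coro1a at its bottom.

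Among 14 genes that act upstream of Klf2, 13 were tested, and with IL-2 10 rose and 2 fell at pH 6.6, around a median of 0.63, where 76.3% of all genes were called and 35.4% were higher. Foxo1 itself rose by 0.84 ± 0.0892 with IL-2 (edgeR adjusted p = 3.5e-10) and was not called without it (-0.06, adjusted p = 0.53). It was lower with IL-2 at pH 7.4, by a log2 fold change of -1.05 ± 0.0894 (adjusted p = 1.49e-12). Foxo3 rose by 1.37 ± 0.119 with IL-2 and by 0.50 ± 0.117 without it (adjusted p = 3.83e-12 and 0.000398). In the ERK5 pathway, the kinase gene Map3k2 rose by 1.36 ± 0.141 with IL-2, and Mef2d, a factor that binds sequences like the MEF2 site printed above, by 1.06 ± 0.0957. These were named because they were among the 3 largest rises of the list. Map2k5, Mapk7 (which encodes ERK5), Map3k3 and Mef2a were also tested, and their values are not given. Any link of these genes to the Klf2 level was not tested. Of the ubiquitin ligase genes in this list, Wwp1 fell by 0.36 on the log2 scale and Fbxw7 by 0.28 (edgeR adjusted p = 0.00289 and 0.00634). Smurf1 instead rose by 0.80 ± 0.0896 (edgeR adjusted p = 1.18e-09). The Fbxw7 call was lost without replicate 2 (-0.18). Without IL-2, where 67.0% of all genes were called, 5 genes rose and 1 fell, against 3 and 3 under total-count scaling. With IL-2 at pH 7.4, 2 were higher and 10 lower, where 80.4% of all genes were called.

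A list of 17 genes linked to FOXO1 and quiescence includes Klf2, S1pr1 and Ccr7, and all 17 were tested. Like the other gene lists, it was chosen with earlier results of these data known. Its counts and medians therefore describe the list and do not test it. With IL-2, 16 rose at pH 6.6 and 1 fell, with a median log2 fold change of 1.72 against -0.07 over all genes, of which 35.4% were called higher. The largest rises were Bcl6, a repressor of effector differentiation (4.12 ± 0.159), Irs2, an adaptor of insulin receptors (3.59 ± 0.219), and Tcf7, which encodes TCF1 of naive and memory cells (3.23 ± 0.0968), with edgeR adjusted p = 9.52e-21, 1.8e-15 and 6.19e-23. Without IL-2, where 67.0% of all genes were called, 4 rose, 5 fell and 8 were not called. The median was 0.08, which turned to -0.04 and -0.07 under upper-quartile and total-count scaling. Il7r, the receptor chain for IL-7, went different ways in the arms. It rose by 1.72 ± 0.192 with IL-2 and fell by 3.27 on the log2 scale without it (adjusted p = 1.08e-09 and 1.6e-17). At pH 7.4, where 80.4% of all genes were called, 16 of the 17 were lower with IL-2 and 0 were higher, around a median of -1.82. The difference of the pH 6.6 effects was called for 16 genes, each higher with IL-2, in a test that called 67.0% of all genes.

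Of 14 genes for homing to peripheral tissues 10 were tested, and with IL-2 2 rose and 6 fell at pH 6.6, around a median of -0.52, where 76.3% of all genes were called. The falls included Cxcr3 (-1.12 ± 0.114) and Ccr2 (-0.72 ± 0.136), receptors for inflammatory chemokines. The rises were Itga1 (0.65 ± 0.124) and Itgae (0.53 ± 0.133), integrin chains of tissue-resident T cells, and Itgae lost its call with no replicate block. Without IL-2, where 67.0% of all genes were called, 1 rose and 9 fell, and Cxcr3 fell by 2.47 on the log2 scale (edgeR adjusted p = 8.54e-18).

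The genes whose levels followed each of the 3 most closely were sought over the 35 libraries by the Pearson correlation of log2 CPM, among 9006 genes of adequate level. The libraries of 1 group and of 1 replicate share their culture, so these are descriptions. S1pr1 was followed by Pdcd4 (r = 0.987), an inhibitor of translation, Klf3 (0.985), Fbxo32 (0.977), Sh3bp5 (0.974) and Bmf (0.974), a BH3-only gene. Among the 5 genes nearest to Ccr7 were Retreg2 (0.946), Gm11131 (0.941), Gata3 (0.937) and Phf13 (0.933). For Gm11131 the correlation was also 0.94 after group and replicate effects were removed. For Retreg2, Gata3 and Phf13 it was then between 0.596 and 0.764. The genes following S1pr1 had between 0.051 (Sh3bp5) and 0.723 (Fbxo32) after this removal. Klf2 had looser companions, Klhdc1 (0.887), the clock factor Dbp (0.874), Bnip3l (0.86), Serf2 (0.859) and Mgst2 (0.858). With group and replicate effects removed, theirs lay between 0.265 (Serf2) and 0.558 (Mgst2). Neither S1pr1 nor Ccr7 was among the 5 nearest to Klf2, with r = 0.707 and 0.375. After group and replicate effects were removed the order was the other way round, with 0.217 for S1pr1 and 0.603 for Ccr7.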

How the data were processed

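RNA of 35 cultures was sequenced by the study's authors from TruSeq Stranded mRNA libraries after Ficoll removal of dead cells. The authors deposited 1 file of raw read counts per gene for each library. Per the labels, the submitters' processing notes name cutadapt 1.8, STAR 2.5.2b and HTSeq 0.6.1 with GRCm38; the strand setting and annotation are not given in the sources used here. The files also hold rows for reads not assigned to a gene, which were left out: reads aligned at several places made up 32.8 to 48.3% of each file's total, so only uniquely aligned reads are behind the values. Protein and surface receptor levels were not analysed here.

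Groups and replicate numbers came from the labels. Counts were analysed with edgeR 4.0.16 in R 4.3.3: filterByExpr with a minimum count of 10 (13819 genes kept), TMM factors, and a robust quasi-likelihood fit of all 35 libraries with group and replicate number as terms, with Benjamini-Hochberg adjustment over all tested genes and a threshold of 0.05. The replicate block was used because the series' design describes 5 biological replicates cultured in the conditions; same-numbered libraries deviated together, with a correlation over 0.1 in 95 of 105 pairs (median 0.273, against -0.0745 for different numbers). No pair of replicates was a duplicate (lowest chi-square per degree of freedom 6.24). CPM used TMM-scaled library sizes, and RPKM divided it by exonic length from GENCODE M21. Depth limits only the lowest values: the smallest count of a member was 90 reads. After the main fit, the method was run on simulated data with changes in the pH 6.6 + IL-2 group and no replicate effect. Against pH 7.4 + IL-2 it called, with the right sign, 32 of 63 changes of 0.5 on the log2 scale. It called 52 of 63 changes of 1 and 66 of 66 of 2, and 3 unchanged genes. Far fewer genes were changed there than were called in the data.

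The 3 members and the gene lists were chosen with earlier results of these data known. Members were named in every comparison; from each list, a few fixed genes and the 3 largest rises and 3 largest falls at pH 6.6 against pH 7.4 with IL-2 among called genes of mean log2 CPM at least 1; and for each member the 5 most correlated genes. Itga4, Klf10, Klf11, Foxo3, S1pr2 and Cxcr3 were described in further comparisons after their values were seen. Smurf1 was named outside these rules, and its value was not recomputed under the alternatives below. Some genes that these rules pick are not reported here, though they stay in the fits and the counts. The promoter motifs were spelled with the Klf2 sequence in view, and the MEF2 motif and the GC box were respelled after their matches had been seen. Alternatives tried were other scalings (RLE, upper-quartile, total count), a loose and a strict filter on low counts, no replicate block, leaving out each replicate, fitting only the groups compared, and DESeq2 1.42.0.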

Additional observations from a re-analysis of the deposited data

Results flagged for a closer look

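In 3 of the 21 combinations of gene and group, 1 library stood further from the rest on the log2 CPM scale than Dixon's 95% limit for 5 samples allows, where chance gives about 1 in 20. Klf2 at pH 6.6 + IL-2 was low in replicate 4 (10.2 CPM, gap over range 0.853). Klf2 at pH 7.4 without IL-2 was also low in replicate 4 (9.51 CPM, 0.72). Ccr7 at pH 7 + IL-2 was high in replicate 3 (112 CPM, 0.735). Replicate 4 was the lowest replicate of Klf2 in 6 of the 7 groups, and leaving it out changed the Klf2 effect of pH 6.6 with IL-2 little, within the range of 1.60 to 1.79 seen over all alternatives.

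The effect of pH 6.6 differed between CTLs with and without IL-2 for all 3 genes, by an interaction test in edgeR. The difference on the log2 scale was 3.01 for S1pr1, 2.39 for Klf2 and 0.82 for Ccr7, and it was positive in 5 of 5 replicates for each. In a test that called 67.0% of all genes, such a difference was common.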

How the results depend on the processing

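Of 624 recomputed values for the 3 genes, 592 kept direction and side of the threshold. The effects of pH 6.6 against pH 7.4 with IL-2, their differences between the IL-2 arms, and the IL-2 effects at pH 7.4 and pH 7 were among these under all 13 alternatives. The cause of the changes below was not tested. Under upper-quartile scaling S1pr1 without IL-2 turned to -0.037 (pH 6.6 against 7.4) and -0.093 (against 7), Klf6 under IL-2 at pH 7.4 to -0.021, and the contrast of pH 6.6 + IL-2 with pH 7.4 became 0.44 (Ccr7, lost) and -0.26 (S1pr1, called). Total-count scaling gave -0.070 and -0.13 for S1pr1 without IL-2, -0.014 for Klf3 without IL-2 and -0.26 (called) for S1pr1 at pH 6.6 + IL-2 against pH 7.4. These scalings moved the median of all genes, for pH 6.6 against 7.4 without IL-2 from -0.03 to -0.15 and -0.19, and for IL-2 at pH 7.4 from -0.04 to -0.27 and -0.20; changes are read relative to it. The S1pr1 difference at pH 7 was called at 0.57 under both, 0.54 with the strict filter, 0.54 with only the groups compared and 0.53 in DESeq2. The loose filter lost Ccr7 at pH 7 + IL-2 (0.69), at pH 6.6 + IL-2 against pH 7.4 (0.52) and at pH 7.4 + IL-2 against 0 h (-0.55). With only the groups compared, Ccr7 and S1pr1 were called for IL-2 at pH 6.6 (-0.45 and -0.22), S1pr1 at pH 6.6 + IL-2 against pH 7.4 (-0.17) and the Ccr7 difference at pH 7 (0.67), and Ccr7 at pH 7.4 + IL-2 against 0 h was lost (-0.45). Without the replicate block S1pr1 at pH 7 + IL-2 against pH 7.4 + IL-2 was 0.57 and not called, and no other call on the 3 genes changed.

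Leaving out 1 replicate at a time gave Ccr7 0.64 to 0.77 at pH 7 + IL-2, -0.029 to 0.061 at pH 7 without IL-2, 0.49 to 0.58 at pH 6.6 + IL-2 against pH 7.4, and -0.74 to -0.36 at pH 7.4 + IL-2 against 0 h. It gave S1pr1 -0.018 to 0.070 between pH 6.6 and pH 7 without IL-2, and the Klf2 difference at pH 7 -0.25 to 0.066. Counts over all genes were least stable at pH 7: against pH 7.4 with IL-2 2623 genes became 1660 with no replicate block, 1374 and 1283 without replicate 2 or 3 and 4388 with only the groups compared; without IL-2 232 became 56, between 35 and 332, and 942; the difference at pH 7, 662, became 177, between 98 and 711, and 1632, with 326 under the loose filter and 1016 in DESeq2. For IL-2 at pH 6.6, 3278 became 2119 without replicate 4 and 5369 with only the groups compared. Of 923 values for other genes 884 kept direction and call.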
